A study of Mus musculus with 9 samples.

Results

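The aminoacyl-tRNA synthetases were examined in CT26, a mouse colorectal carcinoma line, by RNA sequencing of 9 samples. The genes were taken by symbol from a list of 37, and all 37 were found among the 53796 genes of the expression table. Of these, 20 encode cytosolic enzymes or subunits, 16 encode mitochondrial enzymes (symbols ending in 2), and Tarsl2, a paralogue of the cytosolic threonine enzyme, was kept apart. All 9 samples came from cells in which Pd-l1 (gene symbol Cd274) had been knocked out, infected with a retrovirus and selected with puromycin as stable polyclonal lines. The KO group received a control vector, the WT group wild-type mouse Pd-l1 and the K262Q group mouse Pd-l1 with that substitution, with 3 samples in each. Each group is thus 1 selected pool of cells. The labels do not tell whether its 3 samples were grown separately, and the spread that the p-values rest on may be technical.

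Each synthetase joins 1 amino acid to its tRNAs, apart from Eprs, which serves both glutamate and proline. The reaction uses ATP and supplies the ribosome with charged tRNA. The cytosol and the mitochondrion use largely separate nuclear-encoded enzymes, although Gars and Kars each supply both. In the cytosol a group of synthetases sits in a multisynthetase complex held together by the scaffold proteins Aimp1, Aimp2 and Eef1e1, while the others act outside it. When amino acids run short, uncharged tRNA activates the kinase Gcn2 (gene Eif2ak4), translation of the transcription factor ATF4 rises, and ATF4 induces amino acid transporters, biosynthetic enzymes and many cytosolic synthetases. ATF4 acts through the C/EBP-ATF response element.

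That element was looked for in the promoters of the members, because one of the lists compared below holds the genes described as ATF4-responsive. RefSeq promoters (GRCm38.p6, 250 bases before to 50 bases after a gene's start) were matched for 28 of the 37 members. Aars, Gars, Iars, Tars and Yars held the letters TGATGNAAN on either strand. These were 5 of 13 cytosolic genes with a promoter, against 0 of 14 mitochondrial genes, and the letters occur in 3.95% of all 32851 promoters of this length. All 5 belong to the 13 cytosolic genes commonly described as ATF4-responsive, of which 8 had a promoter. Cars, Lars, Nars, Vars and Wars of that list, and Hars, Rars, Hars2 and Pars2, were not among the 28. For each of the 5 genes 1 site is shown, with the matching letters in capitals and 10 bases on each side, 5′ to 3′ on the strand of the gene.
Aars, chr8:111033840-111033868, plus strand: agcgggtcacTTTTCATCAgagcgctctg
Gars, chr6:55037960-55037988, plus strand: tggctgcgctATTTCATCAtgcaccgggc
Iars, chr13:49682126-49682154, plus strand: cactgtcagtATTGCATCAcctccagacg
Tars, chr15:11399656-11399684, minus strand: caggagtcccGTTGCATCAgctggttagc
Yars, chr4:129189896-129189924, plus strand: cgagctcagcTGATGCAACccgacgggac
The Yars site reads TGATGCAAC along the gene. The other 4 sites shown match on the opposite strand, where the Iars site reads TGATGCAAT. Of the sites shown, those of Gars and Tars lie before the start, and the others after it.

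Of the other letters searched on both strands, neither of which contains another motif, CACGTG occurred in 5 of the 28 members (Aars, Farsb, Iars, Tars and Ears2), against 7.15% of all promoters, and TGACGTCA in 0 of 28, against 1.79%. Of the 4 members that were higher in K262Q cells, below, 3 had a promoter, and none of the 3 held any of these letters. The 40 bases just before their starts are shown for comparison with the sites above.
Farsa, chr8:84856946-84856985, plus strand: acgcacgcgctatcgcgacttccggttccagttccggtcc
Kars, chr8:112011355-112011394, minus strand: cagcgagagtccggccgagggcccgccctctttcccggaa
Sars2, chr7:28741928-28741967, plus strand: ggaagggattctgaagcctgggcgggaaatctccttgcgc
A match of letters is a description and does not show binding, and the lack of one says only that the letters are not in this window.

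Levels are the deposited FPKM, which divide fragments by transcript length and library size. Judged by the steps between low values, libraries held 18.0 M to 19.3 M fragments (M, 1e6), so that a 2000 nt transcript at 1 FPKM had 36.0 to 38.6 fragments, with a counting SD of 16.1% to 16.7%. Cd274 was low in KO (0.710 ± 0.320 FPKM) and restored in both other groups (WT, 36.3 ± 1.45; K262Q, 39.6 ± 1.90; SD, n = 3). The label of a colorectal carcinoma line was only partly matched by epithelial markers: Krt18 averaged 30.9 FPKM and Krt20 12.7 FPKM, while Cdh1 was listed at 0 in every library and Epcam, Krt8, Krt19, Vil1 and Cdx2 averaged under 1 FPKM. Krt18 was lower in K262Q (27.0 ± 0.904 FPKM) than in KO (34.9 ± 0.713 FPKM; limma, adjusted p = 0.036), and its part in the results was not tested. Of 4 mesenchymal markers the filament gene Vim averaged 3090 FPKM, Col3a1 30.4 FPKM and Col1a1 7.06 FPKM, while Acta2 averaged 0.0496 FPKM. All 5 leukocyte and 3 endothelial markers averaged under 1 FPKM. Tests used limma on log2(FPKM + 1) for the 12212 genes that averaged 1 FPKM or more, with Benjamini-Hochberg adjustment over all of them. Among all genes 67.8% of those that differed between K262Q and WT were higher in K262Q, or 57.2% after TMM scaling. The number of genes called in that comparison was 1145, and 33 to 1580 with 1 library left out, the lowest without K262Q replicate 2 and the highest without KO replicate 2. All 37 synthetase genes passed the filter on low values.

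Transcripts of every cytosolic synthetase were more abundant than those of every mitochondrial one. The median of the gene means was 129 FPKM for the 20 cytosolic genes and 11.3 FPKM for the 16 mitochondrial genes, an 11.4-fold difference. In 9 of 9 samples the lowest cytosolic gene exceeded the highest mitochondrial gene. The cytosolic range ran from Dars, the aspartate enzyme, at 52.4 FPKM to Sars, the serine enzyme, at 417 FPKM. Tars (threonine, 330 FPKM), Vars (valine, 302 FPKM) and Gars (glycine, 255 FPKM) followed Sars. Dars, Yars (tyrosine, 53.1 FPKM) and Farsa (the catalytic subunit for phenylalanine, 56.1 FPKM) lay at the lower end, and the sample values of all 3 overlapped in KO.

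Among the mitochondrial enzymes the range ran from Mars2 (methionine) at 1.72 FPKM to Tars2 (threonine) at 44.0 FPKM. Pars2 (proline) averaged 2.38 FPKM and Ears2 (glutamate) 3.78 FPKM, whereas Yars2 (tyrosine) averaged 28.5 FPKM and Rars2 (arginine) 27.7 FPKM. Tarsl2 averaged 9.46 FPKM, below the 330 FPKM of Tars and the 44.0 FPKM of Tars2. Mars2 is annotated with a single transcript of 11294 nt, so its low FPKM still stood for 297 to 427 fragments per library.

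**Figure D1:**
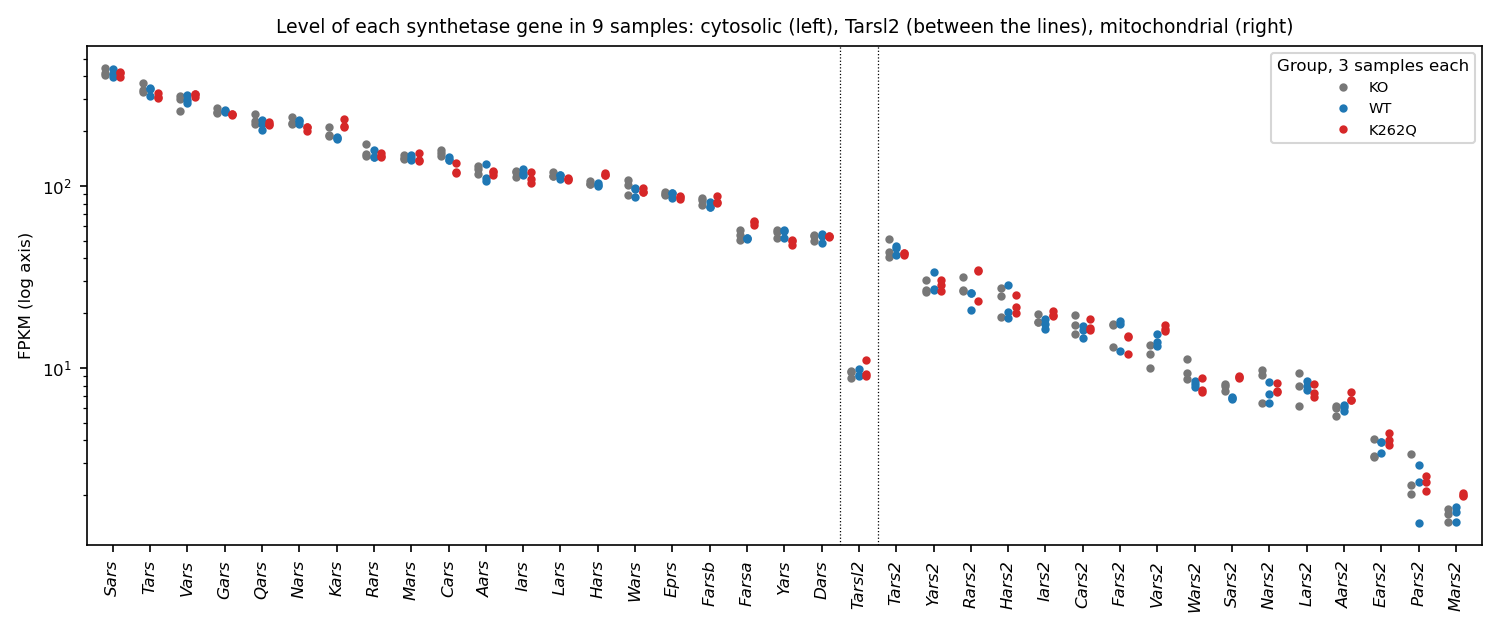
FPKM on a log axis of each of the 37 synthetase genes in 9 samples, with 1 point per sample, coloured by group, genes ordered by mean level within cytosolic genes, Tarsl2 and mitochondrial genes. Every cytosolic gene, from 52.4 to 417 FPKM on average, lies above the mitochondrial genes, whose means run from 1.72 to 44.0 FPKM.

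The distance between the 2 compartments differed widely from 1 amino acid to another. Over 13 pairs of a cytosolic gene and its mitochondrial namesake, Tarsl2 left aside, the ratio of cytosolic to mitochondrial FPKM averaged 84.7 for methionine (Mars to Mars2), 53.7 for serine (Sars to Sars2) and 28.7 for asparagine (Nars to Nars2). At the other end it was 4.80 for histidine (Hars to Hars2) and 1.87 for tyrosine (Yars to Yars2). The summed FPKM of the cytosolic list was 13.2 to 14.8 times that of the mitochondrial list over the 9 libraries. The cytosolic sum was 3316 ± 97.3 FPKM in KO, 3238 ± 85.6 in WT and 3231 ± 54.7 in K262Q, and the mitochondrial sum 235.7 ± 3.52, 228 ± 11.7 and 238.2 ± 8.69 FPKM (SD, n = 3). For each list the group means differed by less than the largest SD among the groups.

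Replicates agreed more closely for the cytosolic genes. The median coefficient of variation within groups was 4.45% for cytosolic and 9.90% for mitochondrial genes. The steadiest member on the log2(FPKM + 1) scale was Hars, the histidine enzyme, with a within-group SD of 0.023, and the least steady was Pars2 with 0.27. Hars2 (0.25), Fars2 (phenylalanine, 0.23) and Rars2 (0.22) came next to it, so changes in these genes were measured less precisely.

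The comparison of K262Q with WT sets 2 groups that both re-express Pd-l1 against each other. Each is 1 selected pool, so the substitution and differences between pools cannot be told apart. Of the 37 synthetase genes 4 rose in K262Q cells, the cytosolic Farsa, Hars and Kars and the mitochondrial Sars2, and 0 of 37 fell (limma, adjusted p under 0.05). All rises were small, between 1.14-fold and 1.26-fold on the FPKM + 1 scale. The share of members that rose was 10.8%, against 6.35% of all genes tested, and the share that fell was 0%, against 3.02%. The other 33 did not pass. An unadjusted p under 0.05 was found in 9 members in all, beside 3402 of the 12212 genes tested.

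Farsa encodes the catalytic alpha subunit of the cytosolic phenylalanine enzyme (ENSMUSG00000003808; GRCm38 chromosome 8, 84856989 to 84869257, plus strand). WT replicates 1, 2 and 3 gave 51.3, 51.8 and 51.7 FPKM, and K262Q gave 61.1, 63.2 and 63.9 FPKM, with 50.6, 57.5 and 54.1 FPKM in KO. All K262Q samples were above every WT and KO sample. The change from WT was 0.28 ± 0.05 on the log2(FPKM + 1) scale (SE; 95% interval 0.16 to 0.39; limma, adjusted p = 0.0237). Farsb, the partner beta subunit of the same enzyme, was 78.3 ± 2.78 FPKM in WT and 83.2 ± 3.78 FPKM in K262Q, a change of 0.09 ± 0.05 (95% interval -0.04 to 0.21) that did not pass (adjusted p = 0.341). Whether the 2 subunits differ in their change was not tested.

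Hars encodes the cytosolic histidine enzyme (ENSMUSG00000001380). Its values were 100.2, 101.2 and 103.6 FPKM in WT, 114.5, 117.2 and 115.4 FPKM in K262Q and 103.2, 106.1 and 102.6 FPKM in KO. The K262Q samples again lay above all others, by 0.18 ± 0.03 over WT (95% interval 0.11 to 0.26, limma, adjusted p = 0.0233). The mitochondrial Hars2 starts from the same locus in the opposite direction, and the first bases of the 2 genes overlap. Hars2 did not pass, and its groups overlapped: WT gave 28.7, 18.8 and 20.3 FPKM and K262Q 21.5, 25.2 and 20.0 FPKM (change -0.01 ± 0.19, adjusted p = 0.997). Strand is not stated, so reads from the overlapping bases cannot be told apart.

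Kars encodes the lysine enzyme of both compartments and is part of the multisynthetase complex (ENSMUSG00000031948; chromosome 8, 111993443 to 112011323, minus strand). Its values were 186.5, 183.9 and 180.8 FPKM for WT, 212.4, 232 and 211 FPKM in K262Q, and 187.7, 209.7 and 190 FPKM in KO. KO replicate 2 came close to the K262Q samples, and the other KO samples lay near WT. The change from WT was 0.25 ± 0.06 (95% interval 0.12 to 0.38, limma, adjusted p = 0.0398).

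Sars2 encodes the mitochondrial serine enzyme (ENSMUSG00000070699; chromosome 7, 28741992 to 28753871, plus strand). WT gave 6.73, 6.87 and 6.92 FPKM and K262Q gave 8.98, 8.90 and 8.80 FPKM, with KO between them at 7.95, 8.18 and 7.48 FPKM. No sample of 1 group overlapped another group. The change was 0.34 ± 0.05 (95% interval 0.23 to 0.44, limma, adjusted p = 0.016). The cytosolic counterpart Sars was 417 ± 19.2 FPKM in WT and 412 ± 14.0 FPKM in K262Q (-0.02 ± 0.05, 95% interval -0.14 to 0.10, adjusted p = 0.865). The ratio of Sars to Sars2 was accordingly 59.3, 60.2 and 63.2 in WT and 44.1, 47.5 and 47.2 in K262Q. Of the pairs compared above, 5 had all K262Q ratios below all WT ratios (methionine, serine, valine, cysteine and isoleucine). The other 8 overlapped, and the ratios were not tested. These 5 are not separate from single genes. K262Q samples lay above all WT samples in Mars2, Sars2, Vars2 and Iars2, and below all WT samples in Cars. Over all genes tested, 22.0% lay above and 13.4% below without overlap, and no such share was obtained for ratios.

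**Figure D2:**
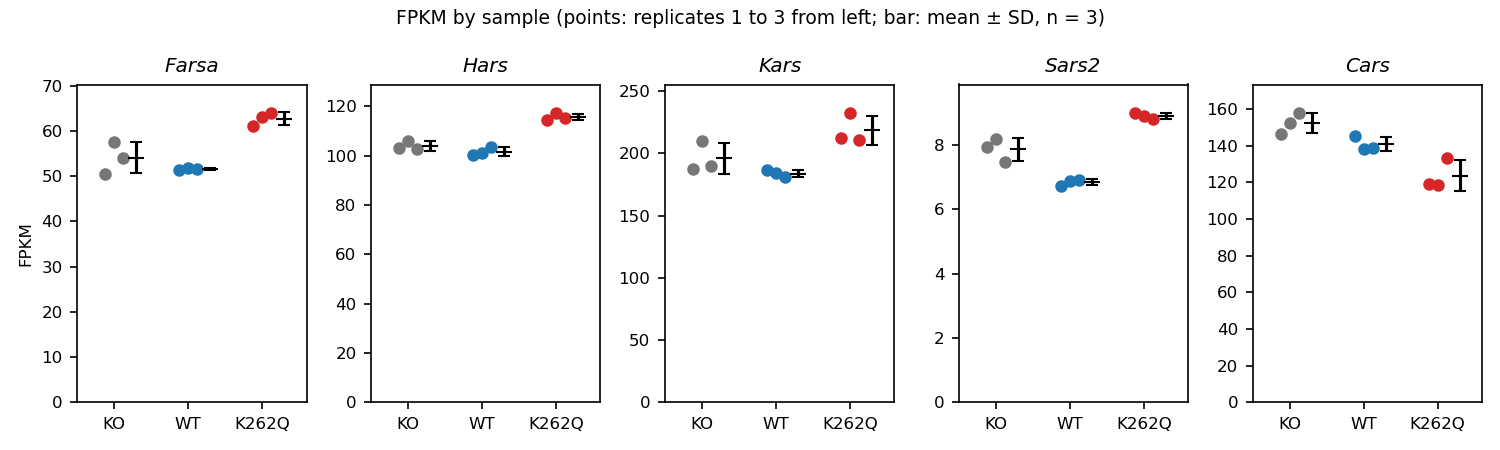
FPKM of Farsa, Hars, Kars, Sars2 and Cars in each sample of the KO, WT and K262Q groups, with mean ± SD (n = 3) beside the points and axes from 0. The K262Q points of the first 4 genes lie above all WT and KO points, while those of Cars lie below them.

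These calls rested on all 6 libraries of the 2 groups. The count of 4 rises went to 0 without WT replicate 1, WT replicate 2, K262Q replicate 2 or K262Q replicate 3. It was 1 without K262Q replicate 1 (Sars2) and 2 without WT replicate 3 (Hars and Sars2). Of the KO libraries only replicate 1 changed the count, to 3, with an adjusted p of 0.0538 for Kars. Over the 9 fits that left out 1 library, the change stayed between 0.26 and 0.30 for Farsa, 0.17 and 0.20 for Hars, 0.20 and 0.27 for Kars and 0.33 and 0.34 for Sars2, with adjusted p up to 0.0873, 0.0842, 0.114 and 0.0658. Kars also lost its call with no filter on low values (adjusted p = 0.08).

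The lowest fitted change on the log2(FPKM + 1) scale was in Cars, the cysteine enzyme (ENSMUSG00000010755; chromosome 7, 143557230 to 143600090, minus strand), which is described here after its values were seen. Cars was at 145.2, 138.3 and 139 FPKM in WT, 119.2, 118.5 and 133.5 FPKM in K262Q and 146.6, 152.6 and 157.6 FPKM in KO. The K262Q samples lay below all others, but the change from WT of -0.19 ± 0.06 (95% interval -0.32 to -0.06) did not pass (limma, adjusted p = 0.0749). K262Q samples were also below all WT samples in Yars (49.1 ± 1.52 against 55.2 ± 2.89 FPKM, adjusted p = 0.105), Nars (208 ± 6.09 against 225 ± 5.44 FPKM, adjusted p = 0.143) and Gars (247 ± 2.08 against 259 ± 2.84 FPKM, adjusted p = 0.258). All K262Q samples were above all WT samples in 8 members, among them the mitochondrial Aars2, Iars2, Mars2 and Vars2 beside the 4 that rose. These 8 of 37 and 4 of 37 compare with 22.0% and 13.4% of all genes tested.

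The intervals give the precision of each change between these samples. They rest on the same spread as the p-values, which may be technical, and do not cover differences between pools. They are not adjusted for the number of genes. The 95% intervals of all 37 members in this comparison lay between -0.57 and 0.69 on the log2(FPKM + 1) scale, and 0 reached a 2-fold change. The fitted values ran from -0.19 to 0.28 in the cytosolic list and from -0.18 to 0.34 in the mitochondrial list. Mars, the methionine enzyme, had a change of 0.00 with an interval of -0.12 to 0.11, and Wars, the tryptophan enzyme, 0.01 with an interval of -0.17 to 0.19. Rars2 had the highest upper bound: WT gave 25.8, 20.9 and 25.9 FPKM and K262Q 23.2, 34.1 and 34.7 FPKM, a change of 0.32 ± 0.16 (interval -0.06 to 0.69, adjusted p = 0.254).

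Both compartments held genes that rose, and a difference between them was not tested. Of 20 cytosolic genes 3 rose, 0 fell and 17 did not pass, with a median change of -0.01. Of 16 mitochondrial genes 1 rose, 0 fell and 15 did not pass, with a median of 0.08, beside a median of 0.03 over all genes tested. The change was above 0 in 9 of 20 cytosolic and 10 of 16 mitochondrial genes, or 5 of 20 and 10 of 16 after TMM scaling. Without that scaling it was above 0 in 6838 of the 12212 genes tested. In the multisynthetase complex (Eprs, Iars, Lars, Mars, Qars, Rars, Kars and Dars) only Kars rose, and the median was -0.01. Among the 12 cytosolic genes outside the complex Farsa and Hars rose, with a median of 0.00. All 3 cytosolic rises were in class II synthetases, 3 of 10, and 0 of 9 class I genes passed. Eprs, counted in neither class because it holds both, did not pass. With shares of 6.35% over all genes, such small counts do not show that the lists differ, which was not tested.

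**Figure D3:**
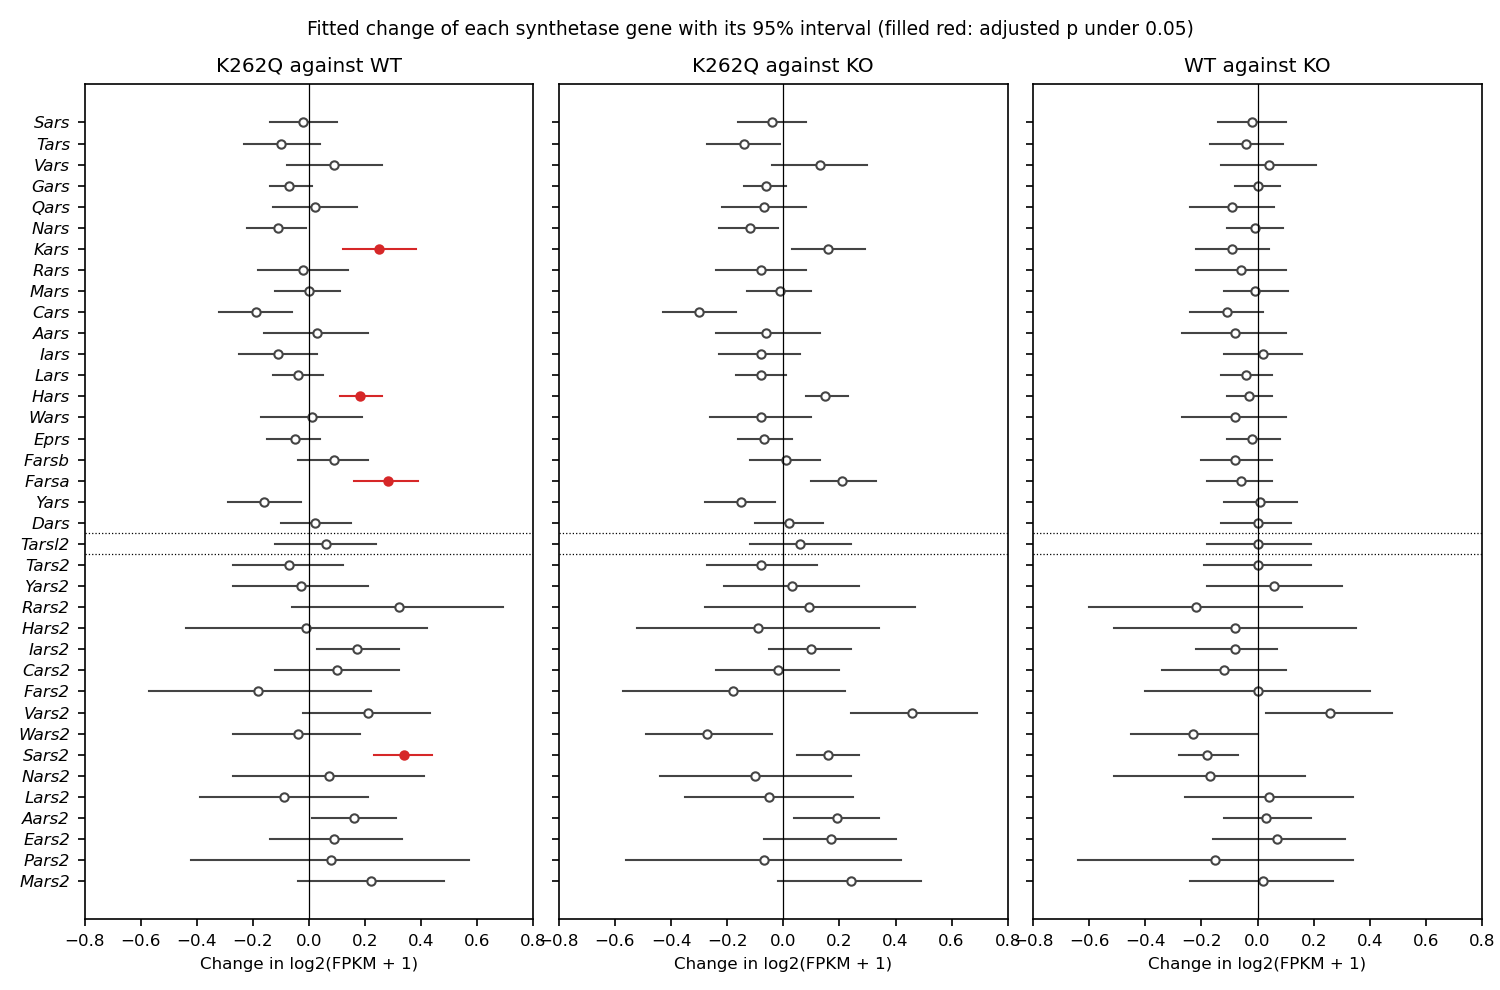
Fitted change in log2(FPKM + 1) of each synthetase gene with its 95% interval in 3 comparisons, filled red where the adjusted p was under 0.05. The 4 filled points are Kars, Hars, Farsa and Sars2 in K262Q against WT. No interval in the 3 panels reaches a 2-fold change on this scale, which lies beyond the axes. The scale understates fold changes of low genes.

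The cytosolic genes were also divided by their link to the amino acid response, as a description. Of 13 genes commonly described as ATF4-responsive (Aars, Cars, Eprs, Gars, Iars, Lars, Mars, Nars, Sars, Tars, Vars, Wars and Yars) 0 passed, and their median change was -0.05. Of the 7 others (Dars, Farsa, Farsb, Hars, Kars, Qars and Rars) 3 rose, with a median of 0.09, and the difference between the lists was not tested. These 3 are the cytosolic calls whose dependence on single libraries is given above. Of all genes tested, 6.35% rose and 3.02% fell. The division rests on general knowledge, and lists were chosen with earlier results of these data known. The change was below 0 in 10 of the 13 and in 1 of the 7, or 12 and 3 after TMM scaling. Without that scaling it was below 0 in 5270 of the 12212 genes tested. The summed FPKM of the 13 genes was 2404 ± 71.5 in WT and 2331 ± 38.1 in K262Q, and that of the 7 was 834.1 ± 19.7 and 900.4 ± 19.7 (SD, n = 3). The sum of the 7 includes Farsa (mean 51.6 and 62.7 FPKM), Hars (102 and 116 FPKM) and Kars (184 and 218 FPKM). It is therefore not separate from their calls. The 5 genes with the response element in their promoter had changes of 0.03 (Aars), -0.07 (Gars), -0.11 (Iars), -0.10 (Tars) and -0.16 (Yars), and 0 of them passed.

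In a wider list of amino acid response genes 6 of 22 tested genes fell, 1 rose and 15 did not pass, with a median of -0.30. Among all genes tested 3.02% fell and 6.35% rose. Slc7a11, the cystine transporter subunit, fell from 8.25 ± 0.0788 FPKM in WT to 4.75 ± 0.220 FPKM in K262Q (-0.69 ± 0.12, limma, adjusted p = 0.0224). Nupr1, a stress-induced nuclear protein, went from 68.1 ± 5.22 to 30.9 ± 1.14 FPKM (-1.11 ± 0.20, adjusted p = 0.0247), and Vldlr, a lipoprotein receptor, from 84.7 ± 1.57 to 58.8 ± 1.45 FPKM (-0.52 ± 0.10, adjusted p = 0.0283). Trib3 (-1.44), Chac1 (-1.27) and Sesn2 (-0.69) were the other genes that fell. Atf4 itself was 499 ± 20.2 and 467 ± 17.9 FPKM (adjusted p = 0.325), and Asns, the asparagine synthetase that ATF4 induces, 289 ± 13.8 and 277 ± 13.6 FPKM (adjusted p = 0.628). The single rise was in Phgdh, which opens serine synthesis, at 74.6 ± 2.85 against 63.2 ± 1.73 FPKM (adjusted p = 0.0421). All 7 calls were lost when any 1 WT or K262Q library was left out, and with no filter on low values. The rise was also lost after upper-quartile and TMM scaling, with 7 falls, and with the replicate number as a block, with 5 falls. The falls numbered 11 without KO replicate 2, 10 without KO replicate 3 and 11 with only the 2 groups fitted. Slc7a5 was listed at 0 in every library. The locus listed for it (chromosome 8, 119910360 to 124345724) is far wider than the annotated gene (121881150 to 121907694), which the gene Gm20388 overlaps. Whether the 0 reflects its expression was not tested.

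Mars lies beside Ddit3, which encodes the stress factor CHOP, on the opposite strand of chromosome 10, and the annotated genes overlap. Ddit3 was 128 ± 15.6 FPKM in WT and 51.1 ± 2.55 FPKM in K262Q (adjusted p = 0.0517), while Mars was 143 ± 4.97 and 143 ± 7.35 FPKM. Wars is also known as an interferon-gamma induced gene. Of 7 tested interferon-gamma genes set beside it, Psmb8, an immunoproteasome subunit, fell from 15 ± 1.14 to 10.2 ± 0.721 FPKM (-0.52 ± 0.09, limma, adjusted p = 0.0218) and 6 did not pass. By comparison, 3.02% of all genes tested fell. The change was below 0 in all 7, with a median of -0.31, beside 5270 of the 12212 genes tested. The count of falls in that list was 0 without any 1 of the 3 WT libraries, K262Q replicate 2 or K262Q replicate 3. It was 2 without K262Q replicate 1 or KO replicate 2, and after upper-quartile or TMM scaling. The count was also 2 with 0.1 added in place of 1, with a mean of at least 5 FPKM and with only the 2 groups fitted. Wars was 93.7 ± 5.50 FPKM in WT and 94.2 ± 3.23 FPKM in K262Q.

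**Figure D4:**
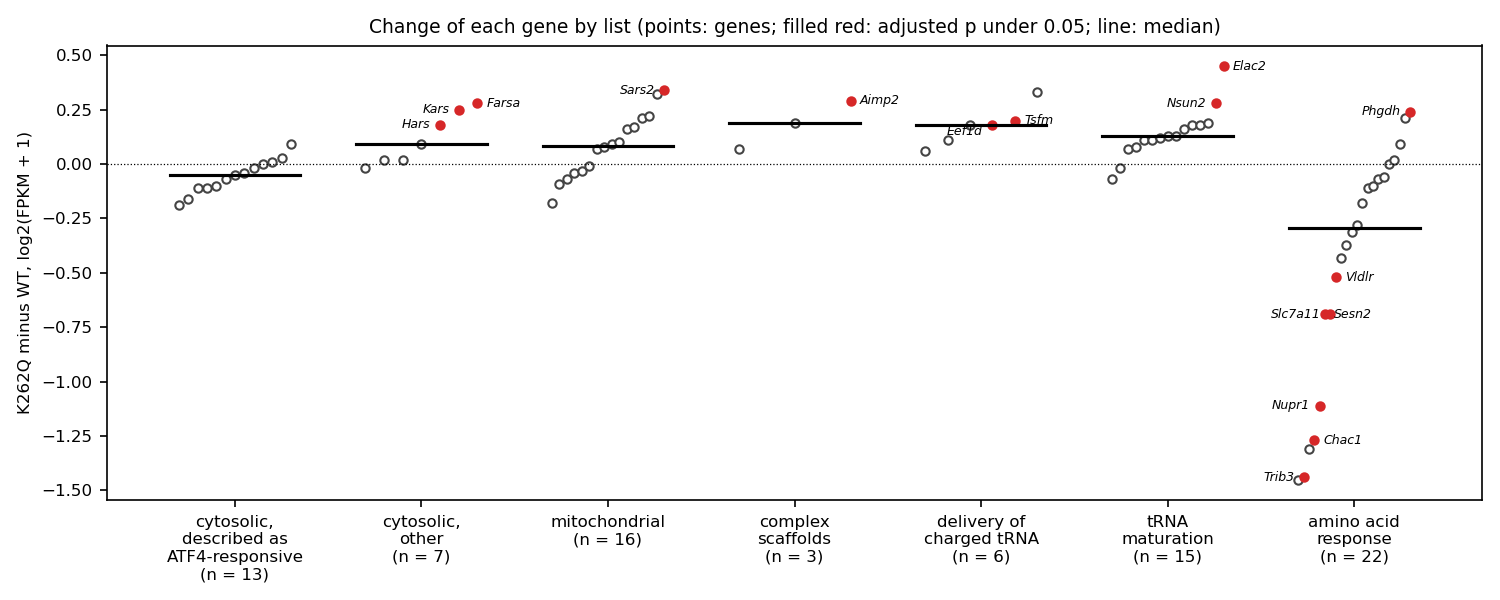
Change in log2(FPKM + 1), K262Q minus WT, of each tested gene in the synthetase lists and in other lists of tRNA charging and the amino acid response, with 1 point per gene, a line at the median and filled red points at adjusted p under 0.05. Synthetase genes stay between -0.19 and 0.34, while amino acid response genes reach -1.45.

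Other genes of tRNA maturation, charging and delivery gave 5 rises and 0 falls in 5 lists, to be read against 6.35% and 3.02% of all genes tested. Of the 3 scaffolds of the multisynthetase complex Aimp2 rose, from 69.1, 64.7 and 70.2 FPKM in WT to 88.5, 80.7 and 81.2 FPKM in K262Q (0.29 ± 0.05, limma, adjusted p = 0.0259). Aimp1 (105 ± 5.08 and 110 ± 7.23 FPKM) and Eef1e1 (39.7 ± 2.55 and 45.6 ± 2.98 FPKM) did not pass. Of 6 genes that deliver charged tRNA to the ribosome, 2 rose: Tsfm, the mitochondrial elongation factor Ts (35.1 ± 0.797 to 40.5 ± 0.981 FPKM, adjusted p = 0.026), and Eef1d, a subunit of the cytosolic exchange factor (263 ± 1.07 to 298 ± 9.36 FPKM, adjusted p = 0.0436). Tufm, the mitochondrial factor Tu, was 34.8 ± 3.26 and 43.9 ± 2.01 FPKM and did not pass (adjusted p = 0.0552). Of 15 tested tRNA maturation genes, 2 rose. Elac2, which cuts the 3′ trailer from tRNA precursors, went from 19.0 ± 0.858 to 26.4 ± 1.78 FPKM (0.45 ± 0.06, adjusted p = 0.016), and Nsun2, a tRNA cytosine methyltransferase, from 129 ± 6.36 to 157 ± 5.33 FPKM (adjusted p = 0.0219). Pus1, a pseudouridine synthase, had the next smallest adjusted p in that list, 0.114. The 5 further genes of mitochondrial charging and 3 tested trans-editing genes, which clear mischarged tRNA, had 0 calls; the smallest adjusted p were those of Gatb, a subunit of the mitochondrial amidotransferase (0.129), and Aarsd1, an alanyl-tRNA editing protein (0.144). The counts of the scaffold and delivery lists were 0 when any 1 WT or K262Q library was left out, and that of the delivery list ranged from 1 to 3 over the scalings, filters and KO libraries left out. The maturation list had 2 calls without WT replicate 3, 1 without K262Q replicate 1, and 0 without each of the other 4.

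The comparison of K262Q with KO sets the substituted Pd-l1 against the vector control; it shares its K262Q samples with the comparison above. No synthetase gene passed (0 of 37, limma, against 1.26% of all genes tested). An unadjusted p under 0.05 was found in 11 members, beside 2681 of the 12212 genes tested. The 4 genes that rose over WT had changes over KO of 0.21 ± 0.05 in Farsa (adjusted p = 0.076), 0.15 ± 0.03 in Hars (0.0633), 0.16 ± 0.06 in Kars (0.164) and 0.16 ± 0.05 in Sars2 (0.111). Cars was -0.30 ± 0.06 (adjusted p = 0.0541). Vars2, the mitochondrial valine enzyme, had the largest value, 0.46 ± 0.10 (adjusted p = 0.0621), from 13.3, 11.9 and 10.0 FPKM in KO to 17.2, 15.9 and 16.3 FPKM in K262Q. WT, at 13.9, 13.2 and 15.4 FPKM, overlapped KO. Over all members the value was above 0 in 15 and below 0 in 22, beside 6408 and 5697 of the 12212 genes tested. The median was -0.05 over the members and 0.01 over all genes tested.

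Some of these passed under other settings. Hars was called higher after upper-quartile scaling, after TMM scaling and without KO replicate 2. Cars was called lower after TMM scaling, with a mean of at least 5 FPKM and without KO replicate 2. Farsa was called higher without KO replicate 2. KO replicate 2 held the highest KO value of Farsa, Hars, Kars and Sars2. The same library held the lowest KO value of the amino acid response genes Trib3 (136.5, 70.5 and 182.6 FPKM in KO replicates 1, 2 and 3) and Nupr1 (75.7, 43.9 and 79.6 FPKM). Over all genes, leaving that library out raised the calls of this comparison from 154 to 1093.

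The comparison of WT with KO addresses what wild-type Pd-l1 changes, and it shares samples with both others. No synthetase gene passed (0 of 37, limma, against 0.0819% of all genes tested). An unadjusted p under 0.05 was found in 686 of the 12212 genes tested and in 2 members. These were Sars2, at 6.84 ± 0.0966 FPKM in WT and 7.87 ± 0.354 FPKM in KO (-0.18 ± 0.05, adjusted p = 0.854), and Vars2, at 14.1 ± 1.12 and 11.7 ± 1.62 FPKM (0.26 ± 0.10, adjusted p = 0.86). Changes of the cytosolic genes ran from -0.11 to 0.04, with 95% intervals between -0.27 and 0.21. Those of the mitochondrial genes ran from -0.23 to 0.26, with intervals between -0.64 and 0.48. In 25 of 37 members the value was below 0, beside 7134 of the 12212 genes tested. The median was -0.02 over all genes tested and -0.03 over the members.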

How the data were processed

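RNA libraries of 9 samples were prepared by BGI protocols from Trizol-extracted RNA, per the labels. The deposited FPKM values carry 1 column per sample. The submitters' processing notes name STAR 2.5.4a, Cufflinks 2.2.1, Cuffdiff and mm10; the annotation and strand are not given in the sources used here. Columns were assigned by the alias in the description and the number in the title.

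Values were tested as log2(FPKM + 1) with limma 3.58.1 in R 4.3.3 (eBayes with trend, 1 fit of 3 groups, two-sided tests), for genes averaging 1 FPKM or more, with Benjamini-Hochberg adjustment and a threshold of 0.05. Fold changes understate those of low genes. An exact permutation test of 3 against 3 cannot go below 0.1. The fit was tested on simulated data. Depth was inferred from low values of 12982 genes with 1 transcript of over 800 nt in GENCODE M21; intervals on it cover counting error only. Members, lists and motifs were chosen with earlier results of these data known; the ATF4 division rests on general knowledge. Named genes were members past the threshold, members without overlap and a change of at least 0.3, the highest and lowest levels, and up to 3 genes per other list by adjusted p; further genes were named after their values were seen. Of the other lists Dnmt2 (also listed as Trdmt1) and Prorp were not matched, and for Itgam the higher of 2 rows was used. Promoters are from RefSeq, GRCm38.p6; 1 member was matched by a synonym. A further promoter sequence is not reported here. As alternatives, 0.1 was added in place of 1, the filter was dropped or raised to 5 FPKM, values were rescaled by upper quartile or TMM (own code), and fits used only the 2 groups compared, the replicate block and each library left out. Python 3.11.15, pandas 2.3.3, numpy 2.4.6, scipy 1.17.1 and matplotlib 3.10.9 were used.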

Additional observations from a re-analysis of the deposited data

How the results depend on the processing

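The number of synthetase genes higher in K262Q than in WT was 4, ranging from 0 to 4 with 1 library left out and from 3 to 4 under the other settings; 0 were lower under any setting run. In WT against KO 0 were higher or lower under any setting run. In K262Q against KO, 0 were higher, but 1 after upper-quartile scaling, 1 after TMM scaling and 0 to 2 with 1 library left out; 0 were lower, but 1 with a mean of at least 5 FPKM, 1 after TMM scaling and 0 to 1 with 1 library left out. The median change of the cytosolic genes between K262Q and WT was -0.011, with -0.045 after TMM scaling and -0.039 to 0.011 with 1 library left out. That of the mitochondrial genes was 0.085, with 0.041 to 0.135 with 1 library left out. Scaling moved the median of all genes from 0.029 to 0.001 (TMM).

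Same-number samples gave no clear pairing (deviations correlated by -0.0361 to 0.0776, other numbers by -0.0737 to 0.051). With the replicate block 4 synthetase genes were higher in K262Q than in WT and 0 in K262Q than in KO, with 1 delivery gene higher and 5 amino acid response genes lower and 0 higher, while calls over all genes went from 1145 to 789 and from 154 to 5. Over all genes the K262Q and WT groups differed in 353 with no filter on low values, and in 33 to 1580 with 1 library left out. K262Q against KO had 55 calls with no filter, 11 to 1093 with 1 library left out, 247 after upper-quartile scaling, 297 after TMM scaling and 9 with only the 2 groups compared. WT against KO had 18 calls with no filter and 6 with the block, and 9 to 18 with 1 library left out. The cause was not tested. Of the lowest mitochondrial genes, Pars2 (2.38 FPKM) had a within-group SD of 0.27, Ears2 (3.78 FPKM) 0.11 and Mars2 (1.72 FPKM) 0.065. Wide spreads were also found at higher levels, in Hars2 (22.9 FPKM, 0.25), Fars2 (15.2 FPKM, 0.23) and Rars2 (27.7 FPKM, 0.22). A link of the spread to level or transcript length was not tested.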
